A study of Mus musculus with 40 samples.

Results

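Cortical transcripts were compared between mice that received 3 closed-head injuries (3xCHI) and mice that received 1 (1xCHI), at matched times after the last injury. The comparison held 19 of the 40 samples of the series, 9 from 3xCHI and 10 from 1xCHI, chosen by their labels alone. RNA was sequenced in bulk from left somatomotor cortex, and all mice were 3xTg-AD females aged 2 to 4 months on a C57BL/6J background. This strain carries mutant human APP and MAPT transgenes driven by a Thy1 promoter, and every group carried them, so no group stood for a wild-type cortex. Injuries were delivered under isoflurane by a weight dropped onto the closed head, 1 per day, and tissue was collected 0.5, 4 or 24 h after the last. The 1xCHI groups held 3, 3 and 4 samples at 0.5, 4 and 24 h, and the 3xCHI groups held 3, 2 and 4. Sample 30 (3xCHI, 4 h) was left out because its animal was an outlier in protein measurements made by the study. The clock from the first injury read 0.5, 4 and 24 h after 1xCHI, and 48.5, 52 and 72 h after 3xCHI. Injury number therefore cannot be told apart from the number of anesthesia exposures or from the time since the first injury. As a reference, 4 sham samples came from mice anesthetized without injury, and 2xCHI and 4xCHI samples were collected at 24 h only.

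Microglia are the resident macrophages of the brain, and after injury they change shape, engulf debris and fill with lysosomes. They make most of the C1q that starts the classical complement pathway, and the integrin chain Itgb2 lets them bind opsonised material and adhere. Astrocytes respond to injury by raising intermediate filaments such as Gfap and secreted proteins such as Serpina3n. In bulk tissue, a change in the number of cells of a type cannot be told apart from a change in RNA per cell.

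Summed counts ranged from 16976471 to 24964410 across 1xCHI samples and from 16487433 to 26425877 across 3xCHI samples. The first principal component of the 19 samples held 40.6% of the variance and separated low from high sample numbers, most clearly in 1xCHI. On it, 1xCHI samples numbered 13 to 18 lay between 15.17 and 46.42 and 1xCHI samples numbered 26 to 36 lay between -35.67 and -10.4. The 3xCHI samples lay between -5.79 and 15.3 when numbered 1 to 5, and between -32.87 and -2.55 when numbered 22 to 38. Samples 15 and 16 (both 1xCHI, 4 h) stood apart on the next components. Values are therefore also given within samples 1 to 18 (5 of 3xCHI and 6 of 1xCHI) and within samples 19 to 40 (4 of each). In the first of these ranges all 3xCHI samples had lower numbers than all 1xCHI samples, so number and group cannot be told apart there. All 20 excitatory neuron genes and all 20 astrocyte markers passed the filter on low counts, which shows brain tissue but not which region, and striatal genes were high in 3 samples described further on.

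With time as a block, 2 of 15224 features differed between 3xCHI and 1xCHI at an adjusted p under 0.05 (0.0131% of those tested), by the quasi-likelihood test of edgeR and the Benjamini-Hochberg method. Both were higher after 3xCHI. The split by direction depended on the tool: DESeq2 called 106 features (50 higher and 56 lower) and limma-voom with sample weights 1848 (967 higher and 881 lower). Itgb2, the shared beta chain of the leukocyte integrins and of complement receptor 3, lies on chromosome 10 from 77530252 to 77565708 (GRCm38, plus strand). Its level was 4.12 to 7.21 CPM (counts scaled to the normalized library size) after 3xCHI (median 5.72, n = 9) and 2.61 to 4.40 CPM after 1xCHI (median 3.17, n = 10). In 8 of the 9 3xCHI samples Itgb2 stood above every 1xCHI sample, and the groups overlapped only through sample 3. The log2 fold change of Itgb2 was 0.79 (SE 0.12, edgeR adjusted p = 0.0304).

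Ccl6, a chemokine of microglia and other myeloid cells, lies on chromosome 11 from 83587882 to 83593087 (GRCm38, minus strand). Its level was 1.27 to 2.92 CPM after 3xCHI (median 1.56) and 0.639 to 1.28 CPM after 1xCHI (median 0.758). Again 8 of 9 3xCHI samples lay above every 1xCHI sample. The log2 fold change of Ccl6 was 1.08 (SE 0.17, edgeR adjusted p = 0.0464). In an exact two-sided permutation test that exchanged samples within each time (14000 exchanges), p was 7.1e-05 for Itgb2, the smallest these exchanges can give, and 1.4e-04 for Ccl6. These p are not adjusted for the choice of the 2 genes out of 15224 features on the same samples. Within samples 1 to 18 the log2 fold changes were 0.88 for Itgb2 and 1.06 for Ccl6, and within samples 19 to 40 they were 0.58 and 1.08. With all 39 samples fitted together, or with sample 30 put back, neither gene passed. Itgb2 also lost its call without 3xCHI sample 1, 2, 5, 22 or 38 or 1xCHI sample 13, 17 or 18 (adjusted p up to 0.136, log2 fold change 0.72 to 0.84 over all 19 omissions). Ccl6 lost its call without any 1 sample other than 3, 4, 16, 27, 36 or 37 (adjusted p up to 0.170, log2 fold change 0.974 to 1.165). Over 15 other alternatives the adjusted p of Itgb2 ranged from 3.337e-06 to 0.943 and that of Ccl6 from 2.633e-04 to 0.943, and both genes were higher after 3xCHI in each.

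At an unadjusted p under 0.05, 619 features (4.07%) were higher and 916 (6.02%) were lower after 3xCHI. When the sample-number range was added as a further block, 65 features passed (0.427%), 36 higher and 29 lower, and both Itgb2 and Ccl6 were among them. That count too turned on single samples: it was 0 without sample 1, 2 or 13, 1 without sample 26 and 267 without sample 22. All 12 leading higher genes and 11 of the 12 leading lower genes passed in that fit, where the leading genes are those with the smallest p in each direction, predicted genes and pseudogenes left out. These genes were chosen from the time-blocked fit of the same samples, so their passing is no independent evidence.

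**Figure D1:**
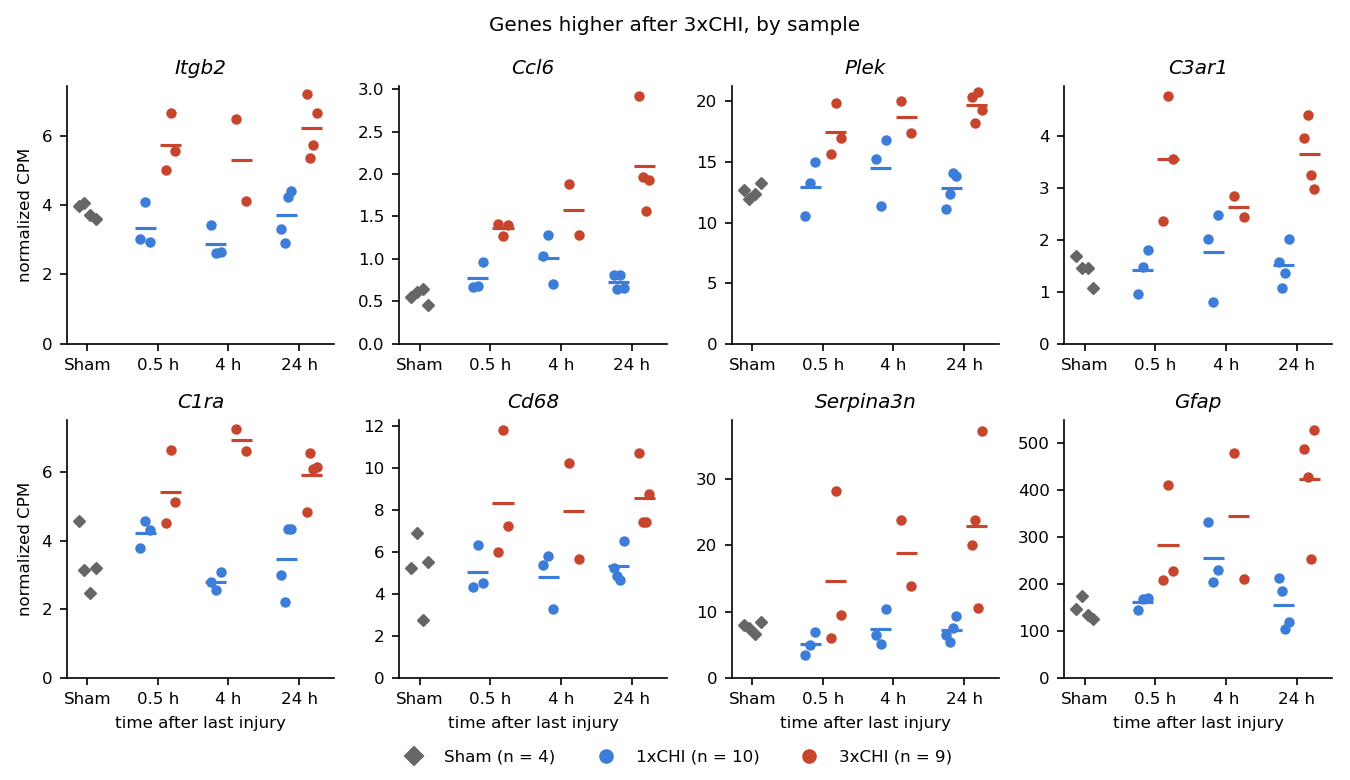
Normalized CPM (vertical axis, from 0) of 8 genes in each sample, by time after the last injury (horizontal axis), for 1xCHI (blue), 3xCHI (red) and sham (grey diamonds), with group means as bars. Itgb2 and Ccl6 pass an adjusted p under 0.05 in the time-blocked comparison and the other 6 do not, and for Itgb2 8 of 9 red points lie above every blue point.

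The regions before the start sites of 3 leading genes and Gfap are shown, because a promoter sequence was at hand for Ccl6, which passed the test, and because Gusb, C1ra and Gfap hold one of the motifs searched. They come from RefSeq (GRCm38.p6), which matched 18 of 25 genes (the 24 leading genes and Gfap), and span 250 bases before to 50 bases after the start, 5′ to 3′ on the gene's own strand. Ccl6 is at chr11:83593038-83593337, Gusb at chr5:130003000-130003299 and Gfap at chr11:102897151-102897450, all on the minus strand, and C1ra is at chr6:124512371-124512670 on the plus strand. Capitals mark a match to a PU.1 box (GAGGAAGT, the site of a myeloid transcription factor) in Gusb and to a STAT site (TTCNNNGAA) in C1ra and Gfap.
Ccl6: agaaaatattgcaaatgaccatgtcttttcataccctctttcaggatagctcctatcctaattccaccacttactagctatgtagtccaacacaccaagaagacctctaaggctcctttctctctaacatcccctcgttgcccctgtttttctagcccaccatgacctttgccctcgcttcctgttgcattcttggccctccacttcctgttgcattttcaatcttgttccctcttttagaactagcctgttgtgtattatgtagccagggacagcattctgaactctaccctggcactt
Gusb: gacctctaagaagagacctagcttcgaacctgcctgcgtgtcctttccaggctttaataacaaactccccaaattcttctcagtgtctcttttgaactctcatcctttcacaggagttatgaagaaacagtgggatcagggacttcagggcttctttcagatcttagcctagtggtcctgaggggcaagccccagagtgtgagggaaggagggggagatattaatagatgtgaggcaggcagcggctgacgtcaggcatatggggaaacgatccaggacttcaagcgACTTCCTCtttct
C1ra: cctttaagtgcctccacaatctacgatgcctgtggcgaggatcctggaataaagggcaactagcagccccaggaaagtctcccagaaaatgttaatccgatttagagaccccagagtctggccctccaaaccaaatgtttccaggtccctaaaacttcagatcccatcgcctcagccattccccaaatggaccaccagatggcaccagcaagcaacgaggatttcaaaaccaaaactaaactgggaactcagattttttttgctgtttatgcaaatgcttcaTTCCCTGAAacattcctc
Gfap: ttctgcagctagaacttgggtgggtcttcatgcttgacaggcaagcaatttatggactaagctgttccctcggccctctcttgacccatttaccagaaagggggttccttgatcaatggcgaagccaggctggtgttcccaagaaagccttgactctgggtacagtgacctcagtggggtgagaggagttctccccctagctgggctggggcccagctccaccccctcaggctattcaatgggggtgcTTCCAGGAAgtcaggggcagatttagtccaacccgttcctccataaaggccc

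Both strands were searched for these letters and for the lysosomal CLEAR element. The PU.1 letters stood in 3.20% of 32851 promoters of the same length, the STAT letters in 8.30% and the CLEAR element in 0.326%. Of the complement genes with a sequence, 1 of 8 held the PU.1 letters (C1qc) and 1 of 8 the STAT letters (C1ra). Of the lysosomal genes, 3 of 25 held the PU.1 letters (Ctss, Gusb and Gla) and 1 of 25 the STAT letters (Lamtor4). The CLEAR element stood in 0 of 25 lysosomal promoters and in none of the homeostatic microglia, disease-associated microglia, complement and pan-reactive astrocyte lists. Of 14 pan-reactive astrocyte promoters, 0 held the PU.1 letters and 1 (Gfap) the STAT letters. Of 15 disease-associated microglia promoters, 1 (Spp1) held the PU.1 letters and 0 the STAT letters. Of 13 homeostatic microglia promoters, 1 held each (Ctss and Siglech). These matches describe the windows only.

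Of 16 homeostatic microglia genes, 15 had a positive log2 fold change, 9 were higher and none lower at an unadjusted p under 0.05, and none passed the adjusted threshold. Their median log2 fold change was 0.24, beside 0.00 over all features. Fcrls, an Fc receptor-like scavenger receptor, was at 11.6 to 25.4 CPM after 3xCHI (median 17.3) and 10.1 to 14.8 CPM after 1xCHI (median 11.9). In 6 of 9 3xCHI samples Fcrls exceeded every 1xCHI sample, for a difference of 0.54 on the log2 scale (SE 0.12, adjusted p = 0.150). Csf1r, the receptor that microglia need to survive, differed by 0.37 (SE 0.09, adjusted p = 0.190). The list's median was 0.37 within samples 1 to 18 and 0.06 within samples 19 to 40.

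Of 16 tested genes of disease-associated microglia, Ccl6 alone passed, 11 had a positive and 5 a negative log2 fold change, and 7 in all were higher and none lower at an unadjusted p under 0.05 (median log2 fold change 0.20). Cd68, a lysosomal glycoprotein of phagocytes, was at 5.69 to 11.8 CPM after 3xCHI (median 7.43) and 3.29 to 6.53 CPM after 1xCHI (median 5.05). Cd68 differed by 0.71 on the log2 scale (SE 0.15, adjusted p = 0.104), by 0.74 within samples 1 to 18 and by 0.55 within samples 19 to 40. Tyrobp and Trem2 (the latter in no list) were chosen after their values were seen, and form one signalling complex of adaptor and receptor. Tyrobp was 0.45 higher (SE 0.10, adjusted p = 0.150) and Trem2 0.48 higher (SE 0.13, adjusted p = 0.244), and both passed with the sample-number block (adjusted p = 0.0413 and 0.0448).

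Among the leading genes, 4 more belong to myeloid cells but to no list here. Plek, a protein kinase C substrate of myeloid cells, was at 15.6 to 20.8 CPM after 3xCHI (median 19.3) and 10.6 to 16.8 CPM after 1xCHI (median 13.6). The Plek difference was 0.50 (SE 0.09, adjusted p = 0.0649). Hcls1, an actin-binding protein of hematopoietic cells, differed by 0.43 (SE 0.08), with 8 of 9 3xCHI samples above every 1xCHI sample. Capg, which caps actin filaments, differed by 1.07 (SE 0.21), and Cd180, a relative of Toll-like receptors, by 0.97 (SE 0.20), each with 7 of 9 3xCHI samples above. Exons of Plek and Cd180 overlap a gene on the other strand, and without stated strand use the reads cannot be told apart. None of the 4 passed the adjusted threshold in the time-blocked fit, and all 4 passed with the sample-number block, a fit of the same samples that chose them.

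Of 13 complement genes tested, 12 had a positive log2 fold change, 8 were higher and none lower at an unadjusted p under 0.05, and Itgb2 passed. The median was 0.36, and it was 0.35 within samples 1 to 18 and 0.50 within samples 19 to 40. C3ar1, the receptor for the fragment C3a, was at 2.37 to 4.77 CPM after 3xCHI (median 3.25) and 0.798 to 2.48 CPM after 1xCHI (median 1.53). C3ar1 differed by 1.12 (SE 0.21, adjusted p = 0.0649). C1ra, a protease of the C1 complex, was at 4.51 to 7.27 CPM after 3xCHI and 2.21 to 4.59 CPM after 1xCHI, a difference of 0.77 (SE 0.15, adjusted p = 0.0704). C1ra has a near-identical paralog in the mouse, so its reads may be divided between the copies.

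The 3 chains of C1q, chosen after their values were seen, moved by like amounts. C1qa differed by 0.29 (SE 0.09), C1qb by 0.36 (SE 0.09) and C1qc by 0.36 (SE 0.09), with adjusted p of 0.312, 0.150 and 0.162. C4b, the next component of the pathway and likewise chosen after its values were seen, differed by 0.89 (SE 0.22, adjusted p = 0.185), with levels of 28.4 to 78.2 CPM after 3xCHI (median 50.6) and 17.7 to 60.6 CPM after 1xCHI (median 24.2). On the level of the complement list, the mean log2 CPM relative to the 19 samples, 3xCHI samples lay between -0.02 and 0.45. The 1xCHI samples lay between -0.43 and 0.37, with only sample 15 above -0.08. That sample also had the highest level of the meningeal fibroblast and collagen genes (1.26), and the part of meningeal RNA in its complement level was not tested. Without samples 15 and 16 the complement median was 0.42.

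Of 28 lysosomal genes tested, 26 had a positive log2 fold change, 12 were higher and none lower at an unadjusted p under 0.05, and none passed. The median log2 fold change was 0.13, with 0.17 within samples 1 to 18 and 0.08 within samples 19 to 40. Man2b1, the lysosomal alpha-mannosidase, was at 31.7 to 41.2 CPM after 3xCHI (median 37.0) and 27.1 to 32.2 CPM after 1xCHI (median 29.9). Man2b1 differed by 0.29 (SE 0.05, adjusted p = 0.0649), and 8 of 9 3xCHI samples stood above every 1xCHI sample. Gusb, the lysosomal beta-glucuronidase whose promoter is printed above, also differed by 0.29 (SE 0.06, adjusted p = 0.0885). Ctsd, the main aspartyl protease of lysosomes, was at 266.5 to 407 CPM after 3xCHI and 194 to 289.5 CPM after 1xCHI, a difference of 0.38 (SE 0.08, adjusted p = 0.120).

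Of 12 tested pan-reactive astrocyte genes, 9 had a positive log2 fold change, 6 were higher and 1 (Hspb1) lower at an unadjusted p under 0.05, and none passed, with a median of 0.24. Serpina3n, a secreted protease inhibitor, was at 5.98 to 37.2 CPM after 3xCHI (median 20.0) and 3.41 to 10.4 CPM after 1xCHI (median 6.49). In 7 of 9 3xCHI samples Serpina3n exceeded every 1xCHI sample, and in samples 4 and 22, both at 0.5 h, it did not. The log2 difference of Serpina3n was 1.54 (SE 0.27, adjusted p = 0.0649), and as a member of a family of near-identical genes its count is uncertain.

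Gfap, the astrocyte intermediate filament, was at 209 to 528 CPM after 3xCHI (median 411) and 105 to 332 CPM after 1xCHI (median 178). The groups overlapped, with 5 of 9 3xCHI samples above every 1xCHI sample. The log2 difference of Gfap was 1.00 (SE 0.21, adjusted p = 0.104; exact permutation p = 0.0014, two-sided). Vim, another intermediate filament, differed by 0.65 (SE 0.21, adjusted p = 0.334). The 20 general astrocyte markers had a median of 0.09, with 2 higher and 1 lower at an unadjusted p under 0.05.

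The remaining leading higher gene, Dhrs1, encodes a reductase of the endoplasmic reticulum. Dhrs1 was at 44.6 to 60.9 CPM after 3xCHI (median 56.9) and 34.8 to 47.1 CPM after 1xCHI (median 41.6), a difference of 0.38 (SE 0.08, adjusted p = 0.0937). Against the 4 sham samples, the median after 3xCHI was above the sham median for all 12 leading higher genes, and the median after 1xCHI for 5. These genes were chosen for higher levels after 3xCHI than after 1xCHI, which by itself favors such counts. Itgb2 was at 3.60 to 4.07 CPM in sham and Ccl6 at 0.451 to 0.645 CPM. At 24 h, Itgb2 was at 3.31 to 3.95 CPM after 2xCHI (n = 3), 5.36 to 7.21 CPM after 3xCHI and 3.24 to 5.10 CPM after 4xCHI (n = 3). Across the 10 5xCHI samples it spread from 3.01 to 18.3 CPM (median 4.87). These reference groups were not tested here.

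All 13 protein-coding transcripts of the mitochondrial genome had a negative log2 fold change, from -0.40 to -0.19, and 4 of them were among the 12 leading lower genes. All 13 were lower at an unadjusted p under 0.05, where 6.02% of all features were, but transcripts of 1 genome are not independent of each other. None passed in the time-blocked fit and 7 passed with the sample-number block. The list's median was -0.35, with -0.40 within samples 1 to 18 and -0.29 within samples 19 to 40. mt-Nd2, a subunit of respiratory complex I, was at 3272 to 4269 CPM after 3xCHI (median 3726) and 3979 to 6185 CPM after 1xCHI (median 4796). The difference of mt-Nd2 was -0.40 (SE 0.08, adjusted p = 0.0994).

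mt-Nd4, mt-Nd5 and mt-Nd6, further complex I subunits, differed by -0.37, -0.35 and -0.35 (SE 0.08 each), with adjusted p of 0.120, 0.145 and 0.127. mt-Nd5 and mt-Nd6 overlap on opposite strands, and nuclear copies of mitochondrial genes share their reads, so the single values are less certain than their sum. Together the 13 genes took 5.02 to 6.33% of counts after 3xCHI (median 5.86%), 5.57 to 8.88% after 1xCHI (median 7.17%) and 5.30 to 5.77% in sham. The 3xCHI range thus covered the sham range, and the 1xCHI samples reached higher. For 11 of the 12 leading lower genes the 1xCHI median was above the sham median, and the 3xCHI median was above it for 4. The choice of these genes for lower levels after 3xCHI than after 1xCHI by itself favors such counts.

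Ribosomal and respiratory genes of the nucleus had negative medians that were near 0 in one range of sample numbers. All 77 cytosolic ribosomal protein genes had a negative log2 fold change (median -0.22), and 29 were lower at an unadjusted p under 0.05. Their median was -0.36 within samples 1 to 18 and -0.01 within samples 19 to 40. Rpl5, Rps12 and Rpl12 had the smallest p, with differences of -0.23 (SE 0.06), -0.37 (SE 0.10) and -0.32 (SE 0.09). The 73 nuclear-encoded respiratory chain genes had a median of -0.17, with 15 lower and 1 higher, and medians of -0.25 and -0.03 in the 2 ranges. Atp5l, a subunit of ATP synthase, differed by -0.31 (SE 0.09, adjusted p = 0.247). The mitochondrial transcripts kept their difference in both ranges, and the ribosomal median did not.

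**Figure D2:**
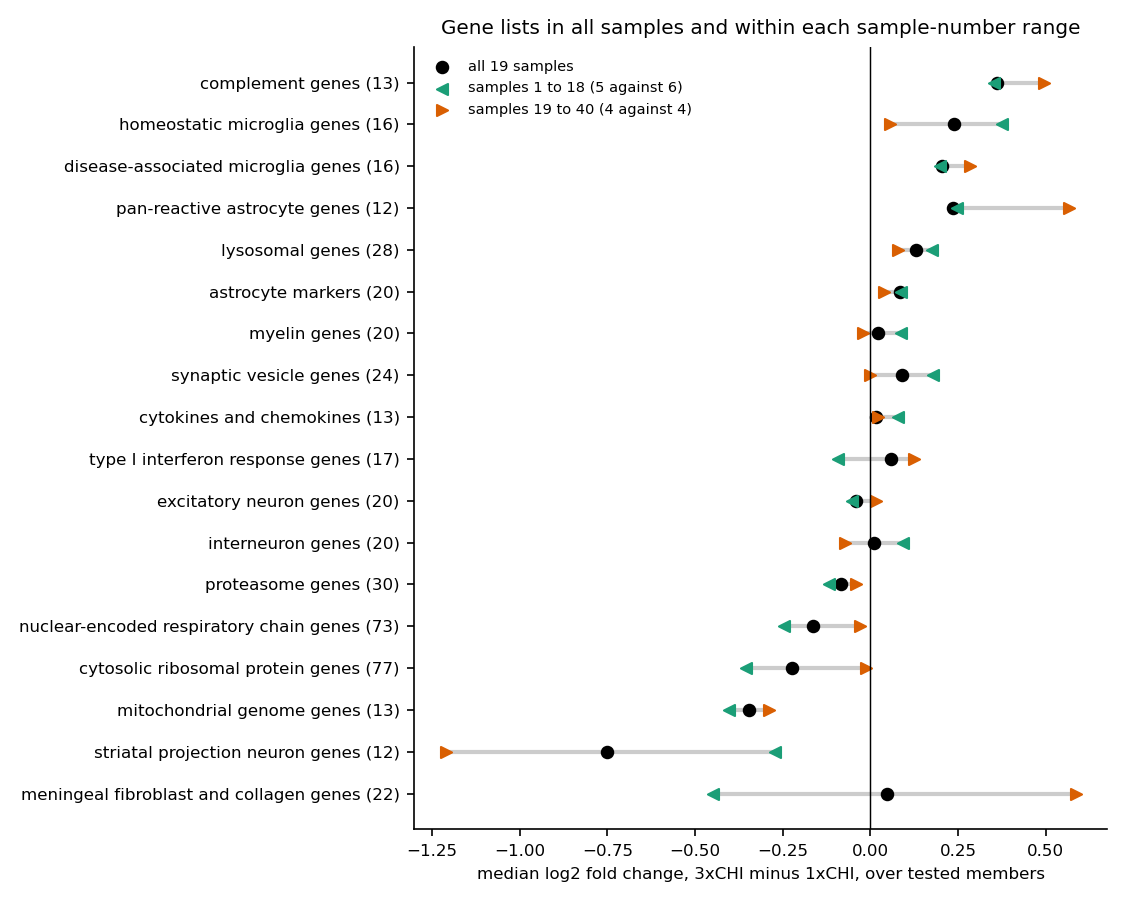
Median log2 fold change (3xCHI minus 1xCHI, horizontal axis) over the tested members of 18 gene lists (number tested in brackets), in all 19 samples (black), within samples 1 to 18 (green) and within samples 19 to 40 (orange). Complement, microglial, pan-reactive astrocyte and lysosomal medians are above 0 in both ranges. Mitochondrial genome medians are below 0 in both ranges, and the ribosomal median goes from -0.36 to -0.01.

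Esf1, the first of the leading lower genes and a nucleolar protein of ribosomal RNA processing, was at 34.6 to 39.2 CPM after 3xCHI (median 37.4) and 41.3 to 48.8 CPM after 1xCHI (median 43.5). The groups did not overlap, and the difference was -0.21 (SE 0.04, adjusted p = 0.0688). Top1, a DNA topoisomerase, had groups that only just did not overlap (102 to 114.3 CPM and 114.7 to 157 CPM), with a difference of -0.20 (SE 0.05, adjusted p = 0.149). Sample 30, left out of the comparison, lay within the 1xCHI range for Esf1 (43.49 CPM) and Top1 (124.2 CPM). How many of all features had groups without overlap was not counted. Smndc1, a spliceosome assembly factor, differed by -0.24 (SE 0.05, adjusted p = 0.143). H2afx, the histone variant marked at DNA breaks, differed by -0.26 (SE 0.05, adjusted p = 0.104). A gene on the other strand overlaps its exons.

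A list of 20 RNA-binding and processing genes, written after Esf1 and Smndc1 had been seen and therefore no independent evidence, had 11 lower and none higher at an unadjusted p under 0.05 (median -0.10). Hnrnpa1, an RNA-binding protein of splicing, differed by -0.22 (SE 0.05, adjusted p = 0.150). Of 31 heat shock and chaperone genes, 7 were lower and none higher, and 22 had a negative and 9 a positive log2 fold change (median -0.04). These include Hsp90aa1, the inducible Hsp90, with -0.17 (SE 0.04), Chordc1, its cochaperone, with -0.19 (SE 0.05), and Manf, a protein of the endoplasmic reticulum, with -0.26 (SE 0.08). Of 30 proteasome genes, 6 were lower and none higher (median -0.08), led by Psma3 with -0.20 (SE 0.05). Over all features, 6.02% were lower and 4.07% higher at an unadjusted p under 0.05. Within samples 1 to 18 the RNA-processing, heat shock and proteasome medians were -0.159, -0.116 and -0.119. Within samples 19 to 40 they were -0.055, -0.037 and -0.04. The heat shock median at 24 h was 0.02.

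Penk, the precursor of the enkephalin peptides, was at 27.8 to 44.8 CPM after 3xCHI (median 32.4) and 30.8 to 141 CPM after 1xCHI (median 57.8). Its difference was -0.89 (SE 0.20, adjusted p = 0.150), and an antisense gene overlaps its exons. Other interneuron peptides with small p were Cort, cortistatin, with -0.59 (SE 0.16, adjusted p = 0.221), and Tac1, the precursor of substance P, with -0.51 (SE 0.19, adjusted p = 0.399). The 20 interneuron genes as a list had a median of 0.01, with 4 lower and none higher.

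Penk and Tac1 are also abundant in projection neurons of the striatum, the tissue below the cortex. All 12 striatal genes of a list written after the leading genes were seen had a negative log2 fold change (median -0.75, 8 at an unadjusted p under 0.05). The list's level was 2.44, 0.90 and 1.40 in the 1xCHI samples 26, 28 and 36, and -0.64 to 0.40 in the other 16 samples of the comparison. Drd2, a dopamine receptor of striatal neurons chosen after its values were seen, was at 6.43 CPM or more in those 3 samples and at 0.545 to 3.15 CPM in the other 16. Without these 3 samples the striatal median was -0.25 and the Penk difference was -0.55 (unadjusted p = 7.9e-04). Tac1 differed by -0.20 without them (unadjusted p = 0.194). The part of striatal RNA in the other differences was not tested. Without the same samples the complement, lysosomal and mitochondrial genome medians were 0.32, 0.14 and -0.39. These 3 samples are among the 4 1xCHI samples numbered 19 to 40. The 1xCHI samples left are mostly the 6 numbered 1 to 18, so number and group can then hardly be told apart. Without the 3 samples 488 features were called, and 2 with the sample-number block. These medians therefore cannot tell striatal RNA from sample number.

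**Figure D3:**
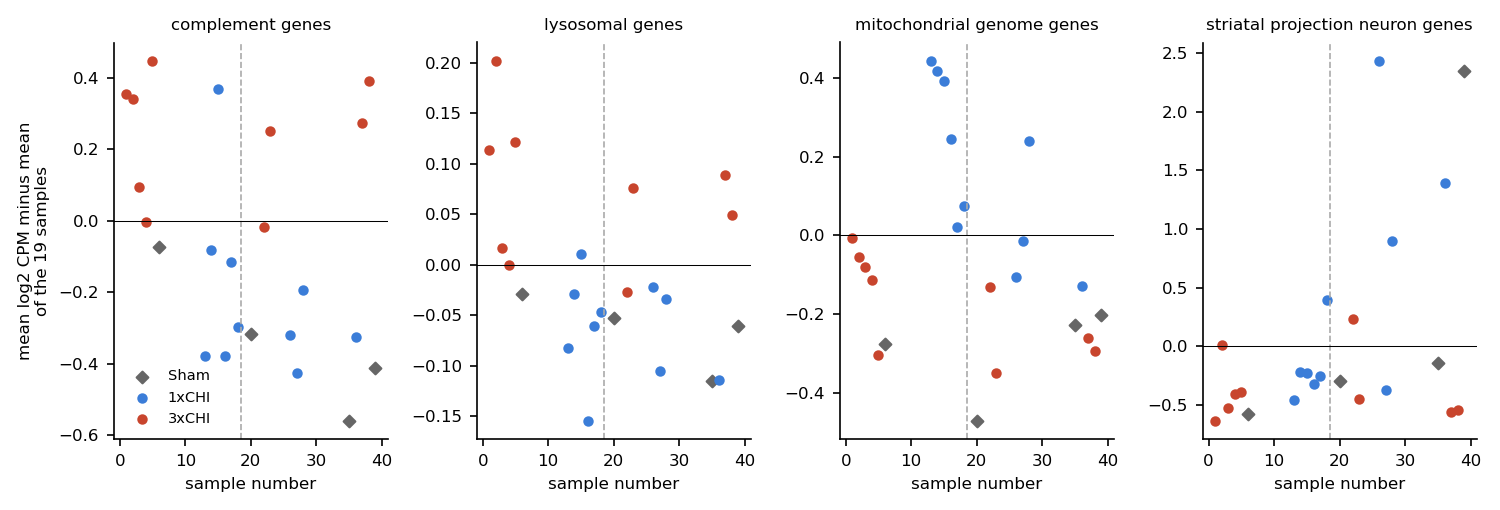
Level of 4 gene lists (mean log2 CPM minus the mean of the 19 samples, vertical axis) in each sham (grey), 1xCHI (blue) and 3xCHI (red) sample against its sample number, with a dashed line between 18 and 19. Complement levels of 3xCHI samples are -0.02 or higher in both ranges, mitochondrial genome levels of 3xCHI samples are below 0, and striatal levels reach 2.44 in 1xCHI sample 26.

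The other leading lower genes were Gpr83, Fbxl17 and AW047730. Gpr83, a neuropeptide receptor, was at 21.6 to 31.1 CPM after 3xCHI (median 25.5) and 27.1 to 42.3 CPM after 1xCHI (median 34.3), a difference of -0.42 (SE 0.09, adjusted p = 0.104). AW047730, a noncoding RNA that overlaps another gene on the opposite strand, differed by -0.41 (SE 0.09, adjusted p = 0.143). Fbxl17, an F-box subunit of ubiquitin ligases, differed by -0.77 (SE 0.17, adjusted p = 0.127). In 8 of 9 3xCHI samples it was at 20.5 to 23.4 CPM and in sample 4 at 41.7 CPM, whereas 9 of 10 1xCHI samples were at 32.7 to 56.3 CPM and sample 14 at 19.6 CPM.

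Each time alone called no feature (0% of 15224 at 0.5 h, 0% at 4 h and 0% at 24 h), and 815, 791 and 903 features had an unadjusted p under 0.05. DESeq2 called 7, 4 and 10. At 0.5 h the smallest p was that of Iqcg. Iqcg, a protein of motile cilia, was at 4.29, 3.86 and 3.19 CPM after 3xCHI and 1.83, 2.12 and 1.92 CPM after 1xCHI (log2 difference 0.95, SE 0.17, adjusted p = 0.429). Spef2, another cilia protein, differed by 1.76 (SE 0.36, adjusted p = 0.564) and had levels of 3.33, 1.32 and 2.70 CPM against 0.865, 0.552 and 0.747 CPM. The 12 tested genes of motile cilia, a list written after these were seen, had a median of 0.86 at 0.5 h, -0.58 at 4 h and 0.18 at 24 h. Zscan12, a zinc finger protein, and Gprin2 differed by 0.70 (SE 0.16) and 1.01 (SE 0.23).

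Npas4, an activity-dependent transcription factor of neurons, was at 466.4, 14.5 and 556 CPM at 0.5 h after 3xCHI and at 39.9, 26.6 and 12.3 CPM after 1xCHI. Sample 5 lay within the 1xCHI range and the other two 3xCHI samples far above it, for a difference of 3.72 (SE 0.81, adjusted p = 0.582). The 23 immediate early genes had a median of 0.35 at 0.5 h, -0.27 at 4 h and 0.10 at 24 h, none of them called. Lower at 0.5 h, Cdkn1a, the cell cycle inhibitor p21, was at 14.8, 17.8 and 18.2 CPM after 3xCHI against 49.1, 44.1 and 25.2 CPM (difference -1.21, SE 0.25, adjusted p = 0.564). Smim3 (-0.72) had a smaller p than Cdkn1a, and Med7 (-0.39), St7 (-0.53) and Sgsm1 (-0.69) had larger ones.

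At 4 h, where 3xCHI held 2 samples, C1ra had the smallest p, with 7.27 and 6.62 CPM after 3xCHI and 2.80, 2.56 and 3.09 CPM after 1xCHI (difference 1.30, SE 0.25, adjusted p = 0.648). Etnppl, an astrocyte enzyme that breaks down phosphoethanolamine, was at 43.1 and 43.6 CPM against 18.9, 20.3 and 11.4 CPM (difference 1.36, SE 0.29). Cables1, Ankrd13a and Gipc3 differed by 0.56, 0.40 and 1.83. Lower were Syt9, a synaptotagmin (-0.78), Cyp26b1, which degrades retinoic acid (-1.90), Pbx3, a homeobox factor (-0.86), Gpr83 (-0.71) and Slc22a3, an organic cation transporter (-1.69). The meningeal genes had a median of -0.91 at this time, when sample 15 was one of the 3 1xCHI samples, and the part of meningeal RNA in these values was not tested.

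At 24 h the smallest p was that of Ccl6. Ccl6 was at 2.92, 1.96, 1.56 and 1.93 CPM after 3xCHI and 0.813, 0.639, 0.807 and 0.658 CPM after 1xCHI (difference 1.51, SE 0.24, adjusted p = 0.126). Gfap was at 487, 429, 252 and 528 CPM against 213, 186, 105 and 119 CPM (difference 1.46, SE 0.30, adjusted p = 0.627). Neither set overlapped at this time. Cd109, a surface protein of A2-type astrocytes, differed by 1.68 (SE 0.36), Plek by 0.62 (SE 0.14) and Man2b1 by 0.36 (SE 0.08). Lower at 24 h were Glcci1, a glucocorticoid-induced gene, with 32.4, 28.8, 21.5 and 25.0 CPM after 3xCHI against 44.4, 48.5, 44.0 and 50.9 CPM (difference -0.80, SE 0.16, adjusted p = 0.627). Nexn (-1.57), Slc16a6 (-0.40), Penk (-1.28) and Gpr6, a receptor of striatal neurons (-2.50), followed, with sample 26 highest for Nexn, Penk and Gpr6.

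**Figure D4:**
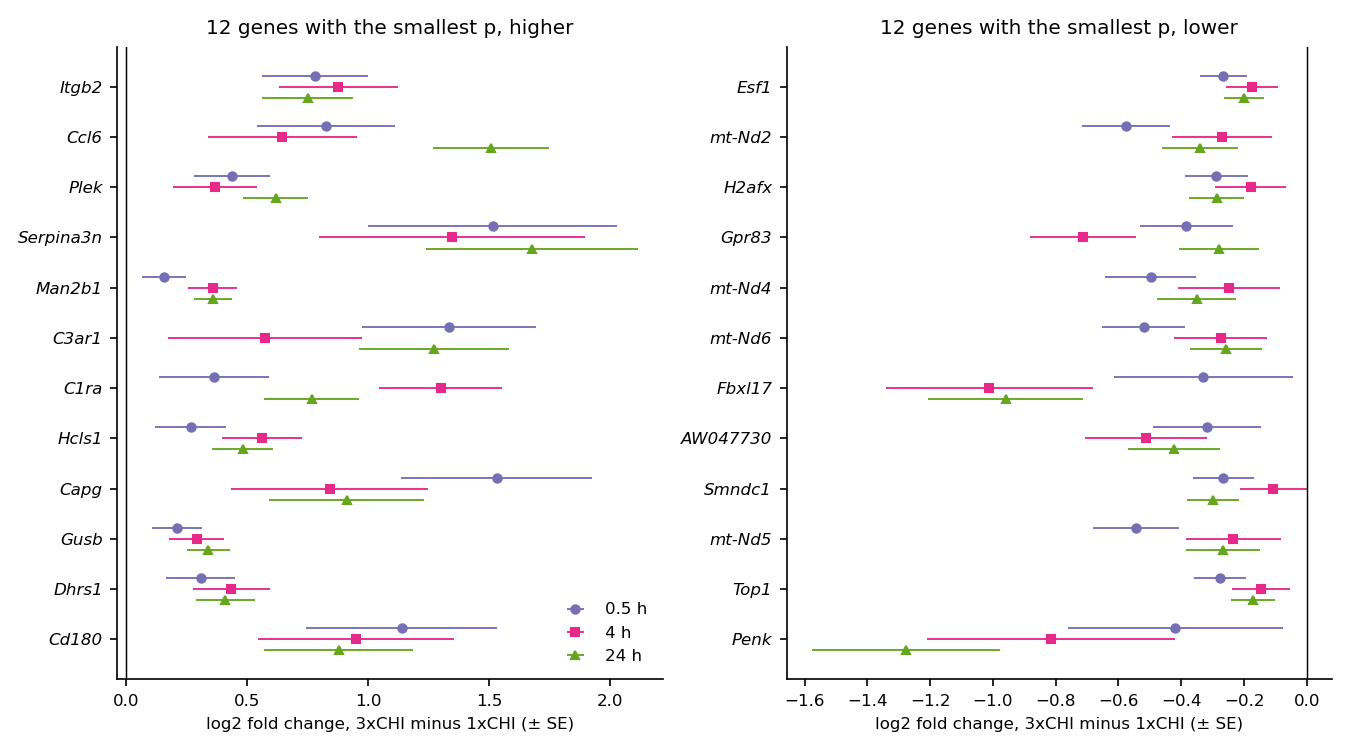
Log2 fold change (3xCHI minus 1xCHI, horizontal axis, with SE bars) at 0.5, 4 and 24 h for the 12 genes with the smallest time-blocked p in each direction. Every point of the left panel is above 0 and every point of the right panel is below 0, in genes chosen from these same samples, and Ccl6 goes from 0.83 at 0.5 h and 0.65 at 4 h to 1.51 at 24 h.

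Whether the difference itself changed with time was tested by the interaction of injury number and time. No feature passed (0% of 15224, smallest adjusted p = 0.726), and 560 had an unadjusted p under 0.05. DESeq2's likelihood-ratio test called 7. The smallest interaction p belonged to Galnt9, a glycosyltransferase, with differences of -0.34, 0.12 and 0.28 at 0.5, 4 and 24 h. Spef2 (1.76, -1.18 and 0.04), Cables1 (-0.26, 0.56 and 0.11), Zscan12 (0.70, -0.56 and 0.05) and Gprin2 (1.01, -0.80 and 0.38) followed.

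Of 30 cytokines and chemokines, 13 passed the filter and Ccl6 alone had an unadjusted p under 0.05 (list median 0.02). Of 17 tested type I interferon response genes none did (median 0.06, with 0.16 without samples 15 and 16 and -0.05 without samples 26, 28 and 36). Of 12 tested antigen presentation genes, 11 had a positive log2 fold change and 1 was higher at an unadjusted p under 0.05. Their median was 0.16, and it was 0.30 without samples 15 and 16 and -0.01 without samples 26, 28 and 36. Cd14, a lipopolysaccharide coreceptor, was 0.66 higher (SE 0.16, adjusted p = 0.150) and Cd109 1.13 higher (SE 0.29, adjusted p = 0.196). They were the only 2 of 8 A2-type genes, and no A1-type gene of 11, with an unadjusted p under 0.05.

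For genes of neurons the medians were -0.04 for excitatory neurons, 0.09 for synaptic vesicles, 0.06 for glutamate and GABA receptors, 0.06 for ion channels and -0.06 for neurofilament and axonal genes. The synaptic vesicle, receptor and channel medians were 0.18, 0.14 and 0.15 within samples 1 to 18 and 0.00, -0.01 and 0.02 within samples 19 to 40. Without samples 26, 28 and 36 they were 0.16, 0.18 and 0.15, beside 0.14 for the lysosomal list. That omission leaves mostly samples numbered 1 to 18 in the 1xCHI group. The medians over all 19 samples were 0.01 for endothelial, -0.09 for mural, 0.02 for myelin and 0.05 for oligodendrocyte precursor genes. The endothelial median was 0.16 within samples 1 to 18 and -0.30 within samples 19 to 40, and the mural median was -0.17 and 0.045. The myelin medians in these ranges were 0.09 and -0.02, and the precursor medians -0.02 and 0.02. Trf, the transferrin of oligodendrocytes, was 0.43 higher (SE 0.12, adjusted p = 0.253). The medians of the stress response, antioxidant, glucocorticoid, circadian, cholesterol synthesis, App and tau, and activity effector lists lay between -0.04 and 0.06, and none of their genes passed. Choroid plexus and hemoglobin genes had medians of -0.30 and -0.24 over 5 genes each, with 1 and no gene at an unadjusted p under 0.05.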

How the data were processed

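The authors deposited estimated counts for each gene, whose column names carry the ending of salmon's output, and a company did the sequencing, alignment and counting for them. The labels name mm10, and the aligner and strand setting are not given in the sources used here. Of the values, 4.47% had a fractional part (any remainder above 0, with no tolerance), and all were rounded before testing. A feature was kept if at most 4 of 39 samples fell below 10 counts, which left 15224 of 55539. Coordinates and exon overlaps come from GENCODE M21 (GRCm38), matched by gene identifier for 15223 of the kept features.

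Samples were grouped by their labels. edgeR 4.0.16 (TMM, quasi-likelihood test) in R 4.3.3 compared 3xCHI with 1xCHI with time as a factor, and a fit of 6 groups gave each time and the interaction. Calls were made at an adjusted p (Benjamini-Hochberg) under 0.05, and the standard error is the log2 fold change over the root of F. CPM were TMM-normalized, and log2 CPM used a prior count of 1. DESeq2 1.42.0, limma 3.58.1, sva 3.50.0, other scalings, filters and samples were alternatives. The fits were tested on simulated data.

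The samples, lists and rules were chosen with earlier results of these data known. The rule for named genes took the 12 with the smallest p in each direction, 5 per direction at each time, 5 for the interaction and 3 per list, without predicted genes and pseudogenes. Many of the genes taken per list are not reported here, mostly of lists given by their medians only. Of 40 gene lists, 3 (striatal, motile cilia, RNA processing) were written after leading genes were seen, as was the choice to leave out samples 15 and 16 or 26, 28 and 36. The range boundary at sample 18 is no batch named in the sources. By the methods of the study each sample is 1 female, so p-values measure the spread between animals. All 22 replicate pairs differed by more than sampling noise (smallest chi-square per gene 6.86). Levels near 1 CPM rest on few counts at these depths (16487433 to 26425877 summed counts per sample).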

Additional observations from a re-analysis of the deposited data

Results flagged for a closer look

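In groups of 4 samples, a value was taken as far from the rest when its gap to the nearest sample exceeded 0.829 of the group's range. Of 300 groups looked at, 16 held such a sample, where about 15 are expected by chance at 1 in 20. Most lay in sham: Gusb at 13.8 CPM and Fbxl17 at 19.81 CPM in sample 6, Dhrs1 at 40.21 CPM, Cd180 at 0.6785 CPM and mt-Nd4 at 5952 CPM in sample 20, Gpr83 at 25.9 CPM in sample 35, and Cort at 1.915 CPM in sample 39. Sham levels far from the rest were those of the pan-reactive astrocyte list in sample 6 (-0.263) and of the striatal list in sample 39 (2.35). In 1xCHI at 24 h, sample 26 stood apart for Trem2 (8.028 CPM) and Gpr6 (7.907 CPM), sample 17 for Cldn11 (187.1 CPM) and the cytokine list level (0.014), and sample 18 for the astrocyte marker level (-0.097). In 3xCHI at 24 h, sample 37 stood apart for Dhrs1 (49.68 CPM) and sample 23 for the endothelial list level (-0.385).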

How the results depend on the processing

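The number of features called between 3xCHI and 1xCHI (2) depended on most choices. It stayed at 2 with robust edgeR and with RLE normalization. It was 106 by DESeq2 and 1848 by limma-voom with sample weights. With library size as the only scaling it was 8, with filterByExpr 1, without a filter 15 and with the exon length trend removed in limma 12. It was 0 with sample 30 put back and 0 with all 39 samples. It was 9 without the time block, 65 with the sample-number block and 32 with 1 surrogate variable. Within samples 1 to 18 it was 2477 and within samples 19 to 40 it was 1. Leaving out 1 sample gave 0 to 11, and in the fit with the sample-number block 0 to 267. The next omissions were chosen after the data were seen. Without samples 15 and 16 the counts were 1, and 11 with the sample-number block. Without samples 26, 28 and 36, which leaves mostly samples numbered 1 to 18 in the 1xCHI group, they were 488 and 2. Single times and the interaction called 0 features in edgeR. DESeq2 called 7 at 0.5 h, 4 at 4 h, 10 at 24 h and 7 for the interaction, and leaving out 1 sample gave 0 to 1 at 0.5 h, 0 at 4 h, 0 at 24 h and 0 to 1 for the interaction. The causes were not tested. Of 2480 named gene values under these alternatives, none changed direction, 29 lost and 308 gained a call. No paired analysis was possible because no sample number is shared between groups.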

Other observations

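Fbxl17 fell into separate ranges over all 39 samples. In 14 of them it was at 18.39 to 23.38 CPM and in the rest at 32.68 to 56.34 CPM, with none between. The lower range held 8 of 9 3xCHI, 1 of 10 1xCHI, 1 of 4 sham, 0 of 3 2xCHI, 1 of 3 4xCHI and 3 of 10 5xCHI samples.

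Sample 30 (3xCHI, 4 h), which was outside the comparison, lay within the 1xCHI range for Itgb2 (3.245 CPM), Ccl6 (0.7749 CPM) and Serpina3n (7.507 CPM). It was on the 3xCHI side of the 1xCHI median for 9 of 12 leading higher genes and 9 of 12 leading lower genes. Some of these lay close to that median, which was 3.169 CPM for Itgb2 and 0.7581 CPM for Ccl6. Esf1 was at 43.49 CPM beside a 1xCHI median of 43.51 CPM. Among the leading genes, only C1ra, Hcls1, Dhrs1 and Smndc1 were outside the 1xCHI range in sample 30. Gfap in that sample was at 114 CPM, below the 1xCHI median of 177.8 CPM. After 5xCHI, Gfap ranged from 107 to 2417 CPM (median 256) and Serpina3n from 5.58 to 309 CPM (median 16.4), wider than in any group compared here.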
